A study of Mus musculus with 22 samples.

Results

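Nuclear tRNA genes were examined for chromatin accessibility, DNA G-quadruplexes, ATRX and H3K9me3 in mouse embryonic stem (ES) cells. The RefSeq annotation of GRCm38.p6 lists 445 tRNA genes, of which 22 are mitochondrial and 20 lie on sequences outside the assembled chromosomes. The remaining 403 genes, on 19 of the chromosomes 1-19 and X, are the members described here. Each gene, with a median length of 72 bp, was extended by 500 bp on both sides, and a gene was counted as carrying a peak where a called peak shared at least 1 bp with this window. The genes stood beside 20923 starts of protein-coding genes and 2387045 tiles of 1072 bp that cover the same chromosomes. All cells came from 1 female line, 16.7, a hybrid of CAST/Ei and 129/Sv/Jae mice, freed of feeder cells before LNA gapmers against TERRA (TERRA KD) or with a scramble sequence (scramble KD) were delivered, and both groups were collected 12 h later. TERRA is the RNA transcribed from telomeric repeats, ATRX is a chromatin remodeler known for its place at telomeres and heterochromatin, and H3K9me3 is a histone mark of heterochromatin. Each of the 4 assays had 2 replicates per condition, described by the study as biological replicates for ATRX and G4. Where nothing says so, p values measure only the spread between these libraries.

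tRNA genes are transcribed by RNA polymerase III from promoters inside the gene. The factor TFIIIC binds an A box and a B box within the transcribed sequence and brings in TFIIIB, which sits upstream and recruits the polymerase, and transcription ends at a run of T residues. Genomes hold many copies of each tRNA gene, often in clusters, and in a given cell type some copies are transcribed and others are silent.

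The sequences below are those of genes that the results turn on. They were read from the RefSeq GRCm38.p6 genome on the strand of the gene, 5′ to 3′, and capitals mark the 9 letters of the B box motif GTTCNANNC. Sequences, substitutions, identical copies and unique windows are all those of this reference genome. The alleles and copy numbers of the hybrid line were not examined. The first is the gene with the strongest accessibility over all libraries, at chr14:54517696-54517768 on the plus strand. The next pair are the most common cysteine gene, closed in all libraries (chr6:48133937-48134008, plus strand), and an open cysteine gene (chr17:71599271-71599342, plus strand). n-TDgtc12 (chr13:21940319-21940390, minus strand) and n-TDgtc13 (chr13:21935497-21935568, minus strand) are identical copies in 1 cluster with different accessibility. n-TQctg1 (chr13:21996581-21996652, minus strand) carried ATRX in both TERRA KD replicates, n-TLtaa2 (chr13:21848022-21848104, minus strand) lost its ATAC peak, n-TCgca12 (chr6:48288876-48288947, minus strand) carried H3K9me3 in all lists, and n-TRtct5 (chr1:173390329-173390402, plus strand) is an arginine gene of anticodon TCT.
n-TRacg6: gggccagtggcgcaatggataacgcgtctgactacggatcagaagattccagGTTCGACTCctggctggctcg
n-TCgca37: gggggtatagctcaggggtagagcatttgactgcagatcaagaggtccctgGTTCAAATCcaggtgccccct
n-TCgca52: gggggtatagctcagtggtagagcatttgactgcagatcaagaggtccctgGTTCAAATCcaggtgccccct
n-TDgtc12: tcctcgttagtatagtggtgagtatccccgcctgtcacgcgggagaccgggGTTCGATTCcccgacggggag
n-TDgtc13: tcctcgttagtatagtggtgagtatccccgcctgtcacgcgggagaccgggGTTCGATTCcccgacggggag
n-TQctg1: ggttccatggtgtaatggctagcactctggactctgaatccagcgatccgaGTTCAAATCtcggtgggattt
n-TLtaa2: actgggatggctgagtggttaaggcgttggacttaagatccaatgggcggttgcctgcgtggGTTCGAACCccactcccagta
n-TCgca12: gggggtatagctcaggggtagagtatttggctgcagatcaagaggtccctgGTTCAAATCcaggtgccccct
n-TRtct5: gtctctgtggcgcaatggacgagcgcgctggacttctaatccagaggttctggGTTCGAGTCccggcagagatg

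The B box letters were present on the gene strand of 371 of the 403 genes, against 2.90% of same-length stretches of the genome read on either strand. The stricter A box letters GGCNNAGTG were found in 32 genes, most of them serine (21) or leucine (9) genes, against 0.989% of stretches. A run of at least 4 T within 25 bp after the gene was present in 335 genes. All 32 genes with the A box letters also held the B box letters, at separate positions, and the absence of a motif says only that these exact letters were not found. The genes carry 20 amino acids with 48 anticodons, and no selenocysteine gene was among them. In total, 22 genes had 2 exons, 10 of them all 10 tyrosine genes. Identical copies are common: 238 genes shared their whole sequence with at least 1 other. Of the genes, 306 lay in 33 clusters with at most 50000 bp between neighbours and 97 stood alone. The windows of 336 genes held only stretches of 150 bp that occur once in the genome, and in 25 genes less than 50% of the window was unique. Reads from the others could be placed at more than 1 site.

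The deposited lists held 78571 to 103911 peaks for ATAC, 140119 to 389434 for G4, 7321 to 41384 for ATRX and 25490 to 76213 for H3K9me3, from 2961038 to 24588605 tags per library. A peak carried by few cells and a weak peak in all cells cannot be told apart in such bulk libraries. One library stood apart, the second G4 replicate of TERRA KD. Its peaks lay at 16.1% of coding starts, close to its share of genome tiles, whereas the other G4 libraries had 40.8% to 61.5% of coding starts. By the deposited false discovery rate, 0% of its peaks were at or below 5%, as against at least 99.9% in the other G4 lists. Some results that rest on it are also given without it. Where G4 values are listed by library, it is the last of the 4. Of 6 genes known to mark ES cells, 5 had an ATAC peak at the start in at least 1 library (Nanog, Pou5f1, Sox2, Tdgf1 and Zfp42), and of 6 fibroblast genes 4 did (Col1a2, Dcn, Thy1 and Twist2). Over all coding starts, 29.7% had an ATAC peak in no list, as had 1 of the 6 ES cell genes and 2 of the 6 fibroblast genes. With so few genes, neither group can be told apart from coding starts in general. The part of other cells in the results was not tested.

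Most tRNA genes were accessible. ATAC peaks touched 274 (68.0%) and 289 (71.7%) of the 403 genes in the first and second scramble KD library. The TERRA KD libraries had 273 (67.7%) and 285 (70.7%). The same peaks touched 4.89%, 6.11%, 5.44% and 6.59% of genome tiles, so the share at tRNA genes was 10.7 to 13.9 times that of the tiles. The mean difference was 63.8 percentage points (SD 1.42, n = 4 libraries), with the tRNA genes higher in 4 of 4 libraries (exact sign-flip test, two-sided, p = 0.13, the smallest that 4 libraries allow). Counted gene by gene, tRNA genes were also slightly above the starts of protein-coding genes, of which 62.5% to 67.6% carried a peak. That difference was 3.83 points (SD 1.59), in the same direction in 4 of 4 libraries (exact sign-flip p = 0.13). Without the genes within 1000 bp of a coding start, 65.5% to 69.5% of 371 genes still carried a peak. In the first TERRA KD library this share, 65.5%, was below the 65.8% of coding starts. When overlapping windows were merged into 301, 192 and 201 carried a peak after scramble KD, 195 and 199 after TERRA KD. Coding starts had 62.5%, 66.9%, 65.8% and 67.6% in the same order, so merged windows were not above them in every library.

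The conditions did not differ in this share beyond the spread of the replicates. The mean was 69.9% ± 2.63 (SD, n = 2) for scramble KD and 69.2% ± 2.11 (SD, n = 2) for TERRA KD, a difference of -0.620 points (exact permutation test, two-sided, p = 0.667). With 2 libraries against 2, this test cannot go below 0.33, so no comparison of conditions given here could pass a threshold of 0.05. The libraries differed more by replicate number than by condition, with both second replicates above both first ones. The same genes were found again: 263 genes (65.3%) carried a peak in all 4 lists, as did 3.49% of tiles, 110 genes carried one in no list, and 30 in 1 to 3 lists. All 274 genes of the first scramble KD replicate were also in the list of the second.

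**Figure D1:**
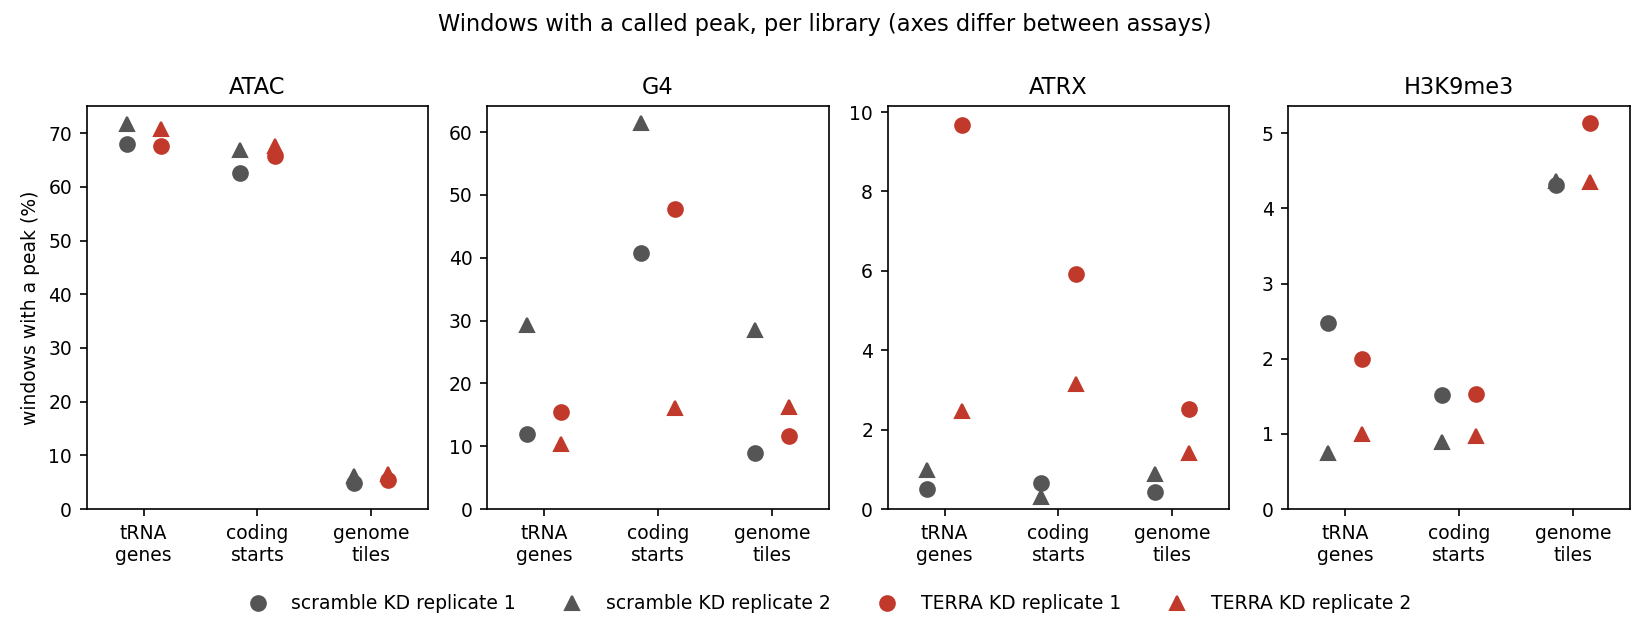
Percent of windows with a called peak, for tRNA genes, coding gene starts and genome tiles, in 4 panels by assay, each point a library (grey, scramble KD; red, TERRA KD; circle, replicate 1; triangle, replicate 2; axes differ). ATAC peaks covered 67.7% to 71.7% of tRNA genes in all 4 libraries, and ATRX peaks reached 9.68% in 1 TERRA KD library.

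The ATAC peaks were centred on the genes. In the first scramble KD list, 57.3% of genes lay under a peak at their 5′ end, against 5.96% at 2000 bp upstream and 3.47% at 2000 bp downstream. The other lists reached 63.8%, 58.3% and 61.8% at or within 20 bp of the 5′ end. The summit of the strongest peak in the window lay at a median of -88.5 to -66.0 bp from the 5′ end in the 4 lists, where negative values are upstream. The peaks at tRNA genes were longer than the list as a whole, with a median of 868 to 972 bp against 518 to 546 bp. They stood high in their lists, at a median rank of 12.8% to 16.4% from the top by p, as against 15.4% to 21.0% for peaks at coding starts. In each window the best-ranked peak was taken, and a long peak touches more windows. Peak lengths at coding starts were not compared. Since genes of a cluster share peaks, the 273 to 289 genes were covered by 209 to 216 separate peaks.

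**Figure D2:**
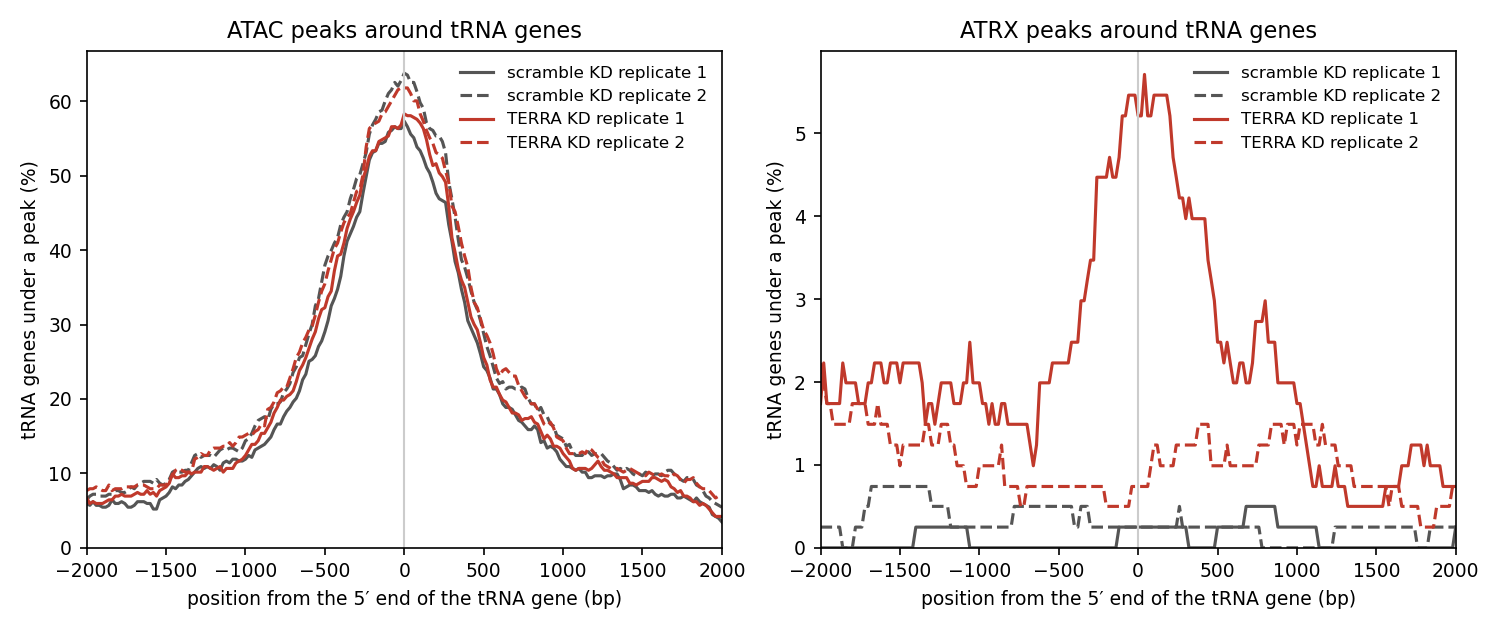
Percent of the 403 tRNA genes that lie under a called peak at each position from the 5′ end (bp, oriented by the strand of the gene), for ATAC (left) and ATRX (right), 1 line per library. ATAC lines rise to between 57.3% and 63.8% near the 5′ end in all 4 libraries, and ATRX shows a rise around the gene, to 5.71%, in TERRA KD replicate 1 alone among the 4 lines.

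n-TRacg6, an arginine gene 226 bp from the start of Prmt5, which encodes an arginine methyltransferase, had the highest ranks. Its ATAC peak was 15.6-fold and 17.5-fold over background with the scramble LNA, 16.5-fold and 15.3-fold with the TERRA LNA, and was within the top 0.211% of every list. n-TEctc5 and n-TGtcc1, a glutamate and a glycine gene of the chromosome 1 cluster, came next and shared 1 peak, of 9.04- to 11.1-fold. Their windows were only 54.6% and 48.3% unique. n-TRcct1, at 858 bp from the start of Fmc1, had a peak of 8.33- and 8.57-fold after scramble KD and of 7.87- and 7.85-fold after TERRA KD. n-TRacg3, at 16429 bp from the nearest coding start, had one of 8.78- and 8.25-fold after scramble KD and of 9.51- and 8.98-fold after TERRA KD. The summits of this peak lay outside the window, at -632 to -546 bp from the 5′ end. Over all tRNA genes, it was not counted how often the fold values of the conditions fail to overlap. No difference between conditions is read from these genes. These values were not tested.

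Large clusters differed in accessibility. Of 7 clusters with at least 10 genes, 6 were mostly open, and the largest was closed throughout. On chromosome 1 (chr1:171033942-171111515), 21 to 24 of 25 genes carried an ATAC peak in the 4 lists. The numbers were 20 to 23 of 25 on chromosome 3 (chr3:96322074-96501518) and 17 to 18 of 18 on chromosome 11 (chr11:69037003-69125248). Chromosome 13 held 3 such clusters. In chr13:21160785-21326789, 22 to 24 of 24 genes were open, in chr13:21848022-22050767, 25 to 27 of 32, and in chr13:23397060-23530419, 25 to 30 of 36. The chromosome 1 windows were 55.1% unique at the median, and 10 of the 25 were fully unique. On chromosome 3, 16 of 25 were. In the other windows of these clusters, a peak can rest on reads from another copy.

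The cluster on chromosome 6 (chr6:48133937-48363603) holds 48 cysteine genes in 230 kb. None of the 48 carried an ATAC peak in any of the 4 lists. The median unique share of its windows was 99.9%, and 23 of them were fully unique. Its genes kept the promoter letters, with the B box in 46 and the T run in 40. They lay far from coding genes, at a median of 86297 bp from the nearest coding start and at least 31983 bp. A second cluster without ATAC peaks, of 8 alanine genes on the X chromosome (chrX:136357602-136430436), had a median unique share of 65.1%, and only 1 of its windows was fully unique. In both clusters the state was the same in scramble KD and TERRA KD. Outside the chromosome 6 cluster, 74.1% of 355 genes were open in all 4 lists.

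**Figure D3:**
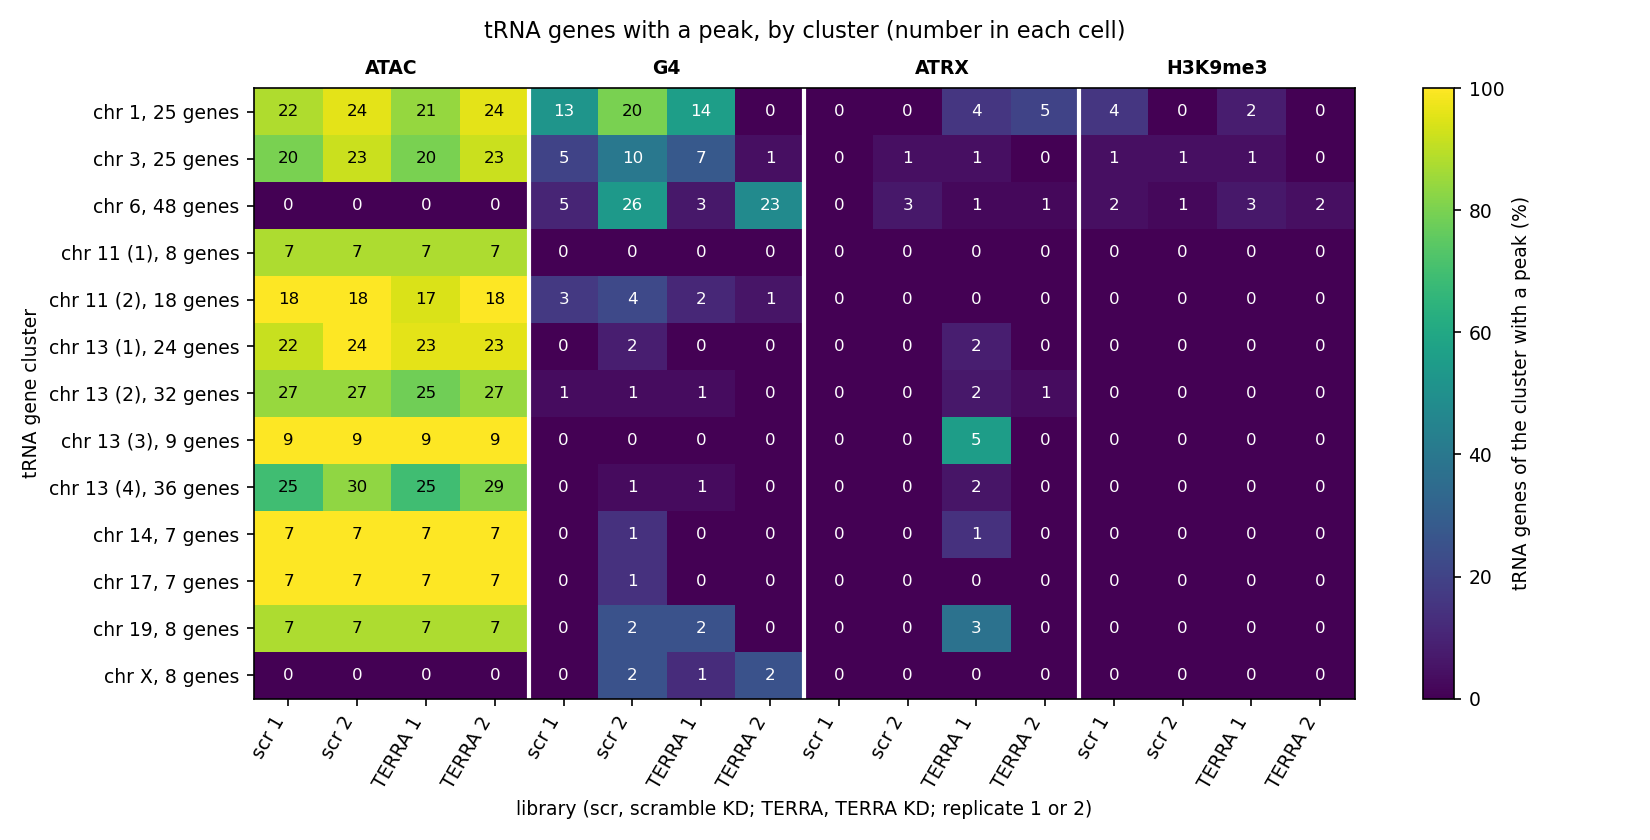
Number of tRNA genes with a peak (in each cell) and their percent of the cluster (colour) for clusters of at least 7 genes (rows) in the 16 libraries (columns, grouped by assay; clusters of 1 chromosome are numbered by position). The chromosome 6 cluster has 0 of 48 genes with an ATAC peak in all 4 libraries, while the other clusters with at least 10 genes have most of theirs.

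The other 9 cysteine genes, outside this cluster, were mixed. n-TCgca57, n-TCgca51, n-TCgca55, n-TCgca54 and n-TCgca52 carried an ATAC peak in all 4 lists, n-TCgca56 in 1 list, and n-TCgca47, n-TCgca53 and n-TCgca18 in none. n-TCgca57 is only 25607 bp from the nearest coding start, that of Zfp956, and lies on chromosome 6 as well. The most common cysteine sequence, shown above for n-TCgca37, had 29 copies, 28 of them in the closed cluster and the other, n-TCgca47, on chromosome 9 and also closed. The cluster held 21 distinct sequences, with 0 to 5 base differences from the common one in the genes of equal length, and 1 gene of another length. Counted from 1 at the 5′ end, all 5 open genes carried the substitution G16T relative to the common sequence, and n-TCgca52 differed by it alone. G16T was present in 2 of the 52 other cysteine genes, n-TCgca53 and n-TCgca56, and in 0 of the 48 genes of the cluster. n-TCgca53 is thus an exact copy of n-TCgca52 without an ATAC peak. A62G was found in 4 of the 5 open and 4 of the 52 other genes, and T50C in 3 and 3, with 2 of the others in the closed cluster in both cases. These genes share most of their sequence and some lie side by side, so they are not independent observations, and the substitutions were picked out after the accessibility was known.

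Identical genes did not always share their accessibility. The 238 genes with copies formed 56 families. In 30 families all copies carried an ATAC peak in all 4 lists, in 3 families no copy did in any list, and 11 families held both kinds, with 43 open and 12 closed copies. Of these 12 closed copies, 9 had fully unique windows. In the aspartate family of 13 identical genes, 11 were open in all lists, n-TDgtc3 in 3 lists, and n-TDgtc13 in none. n-TDgtc13 lay in the same chromosome 13 cluster as its open copies n-TDgtc11 and n-TDgtc12 and had a fully unique window. The closed histidine copies n-THgtg7 and n-THgtg9 had windows with 0% unique stretches, where the lack of a peak cannot be read.

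Closed and open genes differed in how far reads could be placed in their windows. Of the 336 genes with fully unique windows, 72.0% were open in all lists, and of the 67 others 31.3%. Fully unique windows were held by 69 of the 110 closed and 242 of the 263 open genes. The part of read placement in the lack of a peak was not tested. The 110 genes without an ATAC peak lay at a median of 62536 bp from the nearest coding start, the 263 open genes at 12996 bp. Of the 32 genes within 1000 bp of a coding start, 29 were open in all lists and 1 in none. The T run was present in 72.7% of closed and 87.1% of open genes, and the B box letters in 89.1% and 93.2%. Of the 110 closed genes, 48 belonged to the chromosome 6 cluster and 8 to the X cluster. The 54 others carried 20 different amino acids and lay at a median of 18156 bp from a coding start, 34 of them were single genes, 22 lacked the T run and 10 the B box letters. Single genes were open in all lists in 62.9% of 97, genes in clusters of 2 to 9 in 79.6% of 98, and genes of the large clusters in 59.6% of 208. Without the chromosome 6 cluster, 124 of the remaining 160 genes of large clusters were open in all lists, a larger share than that of single genes. Genes share clusters and sequence, so these shares are descriptions without a test.

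Every amino acid had open genes. Cysteine stood lowest, with 5 of 57 genes open in all lists (8.77%), then lysine with 15 of 26 (57.7%), threonine with 10 of 17 (58.8%), tyrosine with 6 of 10 and alanine with 20 of 33 (60.6%). The highest were arginine with 21 of 24 and tryptophan with 7 of 8 (both 87.5%), phenylalanine with 6 of 7 (85.7%), asparagine with 11 of 13 (84.6%) and leucine with 21 of 25 (84.0%). Between these stood glutamine with 11 of 16, histidine with 8 of 11, aspartate with 12 of 16, glutamate with 15 of 20, glycine with 21 of 28, valine with 17 of 22, serine with 18 of 22, and isoleucine, methionine and proline with 13 of 16 each. Of 48 anticodons, 46 had at least 1 gene open in all lists. The exceptions each had 1 gene, n-THatg1 with anticodon ATG and n-TSgga1 with GGA, and neither had an ATAC peak in any list. In a few genes the anticodon in the annotation's note differs from that in the symbol, and the note was used.

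**Figure D4:**
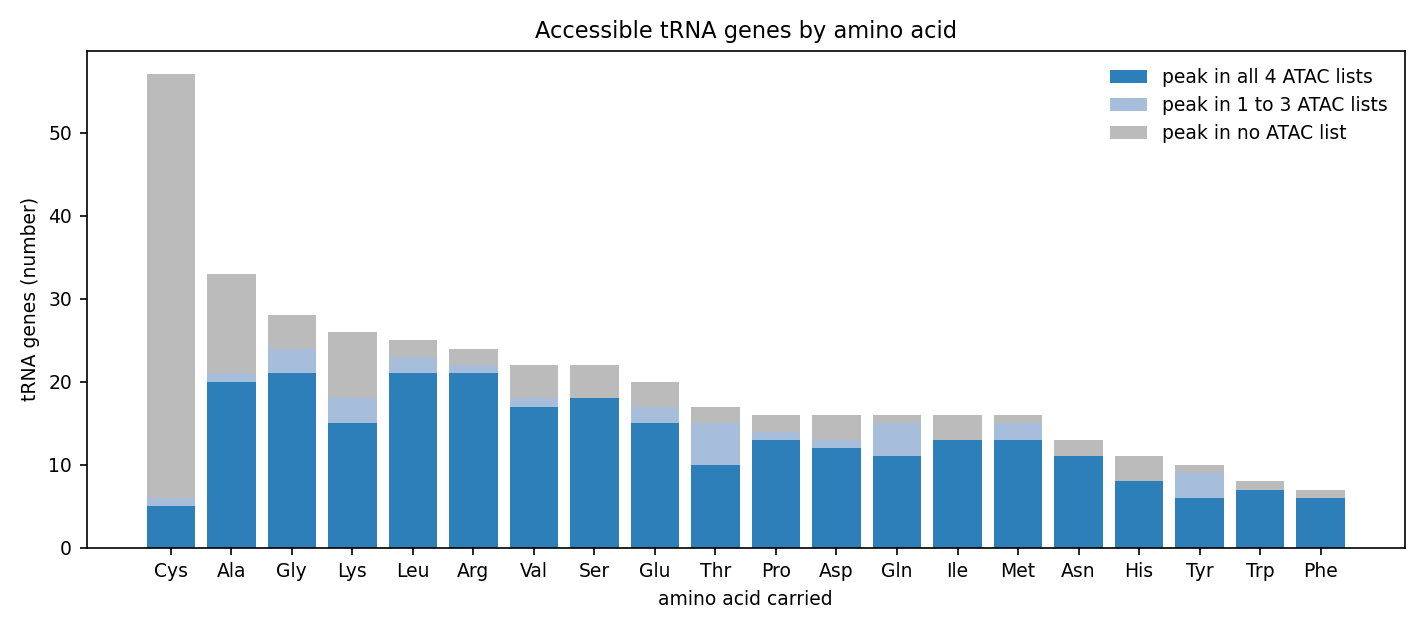
Number of tRNA genes per amino acid (bars, ordered by number), divided into genes with an ATAC peak in all 4 lists, in 1 to 3 lists and in none. Cysteine has 51 of 57 genes without a peak, while in arginine 21 of 24 are open in all lists.

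The 5 arginine genes of anticodon TCT were described in full because n-TRtct5 is known as a gene expressed mainly in the nervous system. Its window carried an ATAC peak in all 4 ES cell lists, 10.1-fold and 14.9-fold after scramble KD, 12.1-fold and 14.0-fold after TERRA KD. The gene lies inside Aim2 and is 22634 bp from the nearest coding start, that of Cadm3. n-TRtct1, n-TRtct2 and n-TRtct4 were open in all lists too, and n-TRtct3 in none, although its window was fully unique. An ATAC peak does not say that the gene was transcribed.

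G4 peaks were at background level at tRNA genes. They touched 48 (11.9%) and 118 (29.3%) genes with the scramble LNA, 62 (15.4%) and 42 (10.4%) with the TERRA LNA, against 8.97%, 28.5%, 11.7% and 16.3% of tiles in the same order. The mean difference from the tiles was 0.358 points (SD 4.35, n = 4 libraries, exact sign-flip p = 0.875). Without the TERRA KD library that stood apart, the difference was 2.44 points (exact sign-flip p = 0.250, the smallest for 3 libraries). Coding starts carried G4 peaks far more often. tRNA genes differed from them by -32.5 to -5.67 points, a mean of -24.8 points (SD 12.9), and were lower in 4 of 4 libraries (exact sign-flip p = 0.13). The -5.67 came from the library that stood apart, and the others lay at -32.5 to -28.9 points.

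The share of tRNA genes with a G4 peak was 20.6% ± 12.3 (SD, n = 2) in scramble KD and 12.9% ± 3.51 (SD, n = 2) in TERRA KD, and the values overlapped (exact permutation p = 0.667). The difference was 3.47 points in the first replicates and -18.9 in the second. It was -5.21 points without the TERRA KD library that stood apart and 0.993 without the second scramble KD library, which alone carried 29.3%. The scramble KD libraries differed in depth, with 2961038 and 24588605 tags, and the number of peaks moved with it.

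Open tRNA genes carried G4 peaks less often than open tiles in these libraries, a description without a test. Of tRNA genes with an ATAC peak in the library of the same condition and number, 13.9%, 24.2%, 18.3% and 2.11% carried a G4 peak (scramble KD 1 and 2, TERRA KD 1 and 2). Of tiles with an ATAC peak, 23.5%, 52.9%, 34.9% and 21.1% did. Open tRNA genes were thus below open tiles in each of the 4 libraries, of which the last is the one that stood apart. At coding starts with an ATAC peak, the shares were 52.6%, 67.8%, 59.1% and 10.6%. A G4 motif, defined as 4 runs of at least 3 G or C with loops of up to 7 bases, was present in 92 genes (22.8%) and in 16.8% of tiles, and the median GC content was 45.4% and 41.5%, over all windows of each kind. The motif was not counted in open tiles alone, and its part in the difference was not tested. Among genes with a motif, 25, 41, 28 and 9 of 92 carried a G4 peak, and among those without, 23, 77, 34 and 33 of 311.

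**Figure D5:**
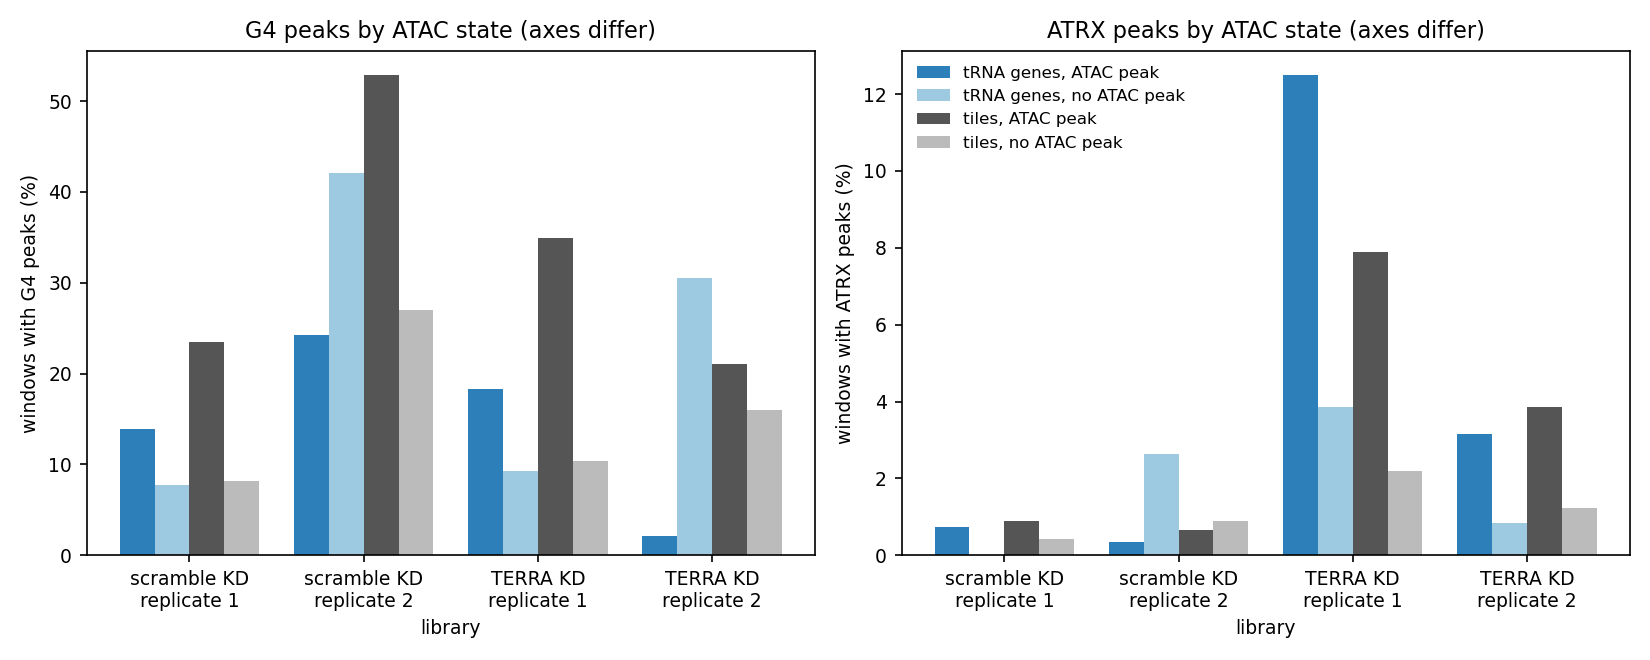
Percent of windows with G4 peaks (left) and ATRX peaks (right) in each library, for tRNA genes and genome tiles with and without an ATAC peak in the library of the same condition and replicate number (axes differ). For G4, the open tRNA genes lie below the open tiles in all 4 libraries. For ATRX, they lie above them in TERRA KD replicate 1 only.

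G4 peaks lay at 17, 35, 27 and 11 of the 97 single genes (17.5%, 36.1%, 27.8% and 11.3%), above the share over all tRNA genes in each library. Of these single genes, 22 lay within 1000 bp of a coding start. Over all 32 genes that near, 14, 14, 15 and 1 carried a G4 peak, and the part of this distance was not tested. Of the 98 genes in clusters of 2 to 9, 4, 19, 7 and 6 carried a G4 peak. The large clusters differed among themselves. The chromosome 1 cluster carried them at 13 and 20 of its 25 genes after scramble KD, at 14 in the first TERRA KD library and at none in the library that stood apart. It is rich in GC (55.8%), with a motif in 14 windows, but its windows were only 55.1% unique at the median. The 13 genes in the first scramble KD list rested on 3 separate peaks. The closed chromosome 6 cluster showed another order, with G4 peaks at 5 and 26 genes after scramble KD, 3 and 23 after TERRA KD. These were 10.4%, 54.2%, 6.25% and 47.9% of its 48 genes, as against 8.97%, 28.5%, 11.7% and 16.3% of tiles. Both second replicates thus lay above both first ones, but the 23 came from the library that stood apart. The second replicates were also the deeper ones. They had 24588605 (scramble KD) and 13127555 tags (TERRA KD), and the first had 2961038 and 5759282. The parts of depth and of condition in these numbers were not tested. Only 3 of the 48 windows of this cluster held a motif. On chromosome 3, the numbers were 5, 10, 7 and 1 of 25. The 3 large clusters of chromosome 13 had at most 2 genes with a G4 peak in any library. Over all genes, 40 carried a G4 peak in both scramble KD lists (9.93%, tiles 5.69%) and 9 in both TERRA KD lists (2.23%, tiles 6.96%). The latter count rests on the library that stood apart. No G4 peak in any list was found at 268 genes (66.5%), close to the 65.0% of tiles.

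No tRNA gene gained a G4 peak in both TERRA KD replicates, as against 0.250% of tiles. A peak in both scramble KD lists and in neither TERRA KD list was found at 5 genes (1.24%), as against 0.694% of tiles and 5.31% of coding starts. These were the glutamate gene n-TEctc7, the glycine genes n-TGgcc5 and n-TGccc4, and the cysteine genes n-TCgca43 and n-TCgca5 of the closed cluster. The G4 peak of n-TEctc7 was 19-fold over background in the first and 7.28-fold in the second scramble KD library, in a window that was only 16.3% unique. n-TGgcc5, in the chromosome 11 cluster, had peaks of 19-fold and 6.51-fold in a fully unique window. Their summits lay outside the windows, at -901 and -854 bp from the 5′ end of n-TEctc7 and at 841 and 808 bp from that of n-TGgcc5. All 5 calls of a loss rest in part on the library that stood apart, since they need it to have no peak. n-TCgca12, n-TEctc3 and n-TTagt5 carried a G4 peak in all 4 lists (0.744% of genes, as against 3.03% of tiles and 6.39% of coding starts).

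ATRX peaks were scarce at tRNA genes in scramble KD and more frequent in TERRA KD, above all in 1 library. They touched 2 (0.496%) and 4 (0.993%) genes with the scramble LNA, 39 (9.68%) and 10 (2.48%) with the TERRA LNA. Both TERRA KD libraries lay above both scramble KD libraries. The mean was 0.744% ± 0.351 (SD, n = 2) and 6.08% ± 5.09 (SD, n = 2), a difference of 5.33 points (exact permutation test, two-sided, p = 0.33, the smallest possible). The whole genome moved in the same direction, with 0.440% and 0.873% of tiles after scramble KD, 2.51% and 1.41% after TERRA KD. The ratio of the tRNA share to the tile share was 1.13 and 1.14 after scramble KD, 3.85 and 1.77 after TERRA KD. Over the 4 libraries, the tRNA share exceeded that of the tiles by 2.10 points (SD 3.41), higher in 4 of 4 (exact sign-flip p = 0.13), and by 0.418 points without the first TERRA KD library. The excess over tiles changed from a mean of 0.0883 points to 4.12 points after TERRA KD (exact permutation p = 0.33). In the 336 fully unique windows, the TERRA KD libraries had 36 (10.7%) and 5 (1.49%), the latter near the 1.41% of tiles. Coding starts carried ATRX at 0.655% and 0.306% after scramble KD, 5.91% and 3.16% after TERRA KD. tRNA genes exceeded them by a mean of 0.904 points (SD 1.99), higher in 2 of 4 libraries (exact sign-flip p = 0.625).

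ATRX peaks were weak throughout these lists, of which 1.97%, 1.22%, 7.46% and 2.25% reached a -log10 p of 5. At tRNA genes the -log10 p reached at most 4.06 in any list, and 0 genes had an ATRX peak at a -log10 p of at least 5 in any of the 4 libraries. The 39 windows of the first TERRA KD library held peaks of 4.00 to 12.0 tags, with a median enrichment of 11.4-fold, as against 9.5-fold for the list. Their median rank was 37.8% from the top, and that of peaks at coding starts 51.5%. For each window the best-ranked peak was taken, whereas the list holds all peaks. When the same number of top-ranked peaks was taken from both conditions of a replicate number, the difference fell to 0.993 points. The first TERRA KD library had 4104486 tags and 41384 peaks, and its scramble KD counterpart 6606064 tags and 7321 peaks, so the larger list was that of the shallower library. By the deposited false discovery rate, 0% of the peaks in both scramble KD lists were at or below 5%, as were 5% in the first and 99.9% in the second TERRA KD list.

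In the first TERRA KD library, the ATRX peaks lay at open tRNA genes for the most part. An ATAC peak in the matching library was present at 34 of the 39 genes. Of tRNA genes with an ATAC peak, 12.5% carried ATRX there, and of those without, 3.85%. The shares with an ATAC peak were 7.90% for tiles and 7.73% for coding starts. In the second TERRA KD library, 3.16% of open tRNA genes carried ATRX, not above the 3.85% of open tiles. The 39 genes spread over 13 chromosomes and carried 18 amino acids. The small cluster on chromosome 13 at chr13:23270421-23317538 held 5 of its 9 genes among them (n-TIaat15, n-TVaac4, n-TAagc10, n-TVaac6 and n-TAagc11), and the cluster on chromosome 19 at chr19:12002236-12012338 held 3 of 8 (n-TLtaa4, n-TVtac1 and n-TVtac2). Close neighbours such as n-TLcag5 and n-TLcag4, or n-TFgaa3 and n-TNgtt7 close to Ndufs7, which encodes a subunit of respiratory complex I, were covered together. In the second TERRA KD library, 5 of the 10 genes lay in the chromosome 1 cluster, on windows of 0% to 67.2% uniqueness. The 39 and 10 genes were given here after their values were seen.

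The TERRA KD replicates shared 1 gene, n-TQctg1, a glutamine gene of the chromosome 13 cluster. It was 1 of the 39 genes in the first list (2.56%) and 1 of the 10 in the second. It was the only tRNA gene with ATRX in both TERRA KD and no scramble KD list (0.248%, as against 0.143% of tiles). Its peaks were 7.62-fold and 3.55-fold over input. They were not at the same spot, since 1 summit lay 709 bp downstream and the other 486 bp upstream of the 5′ end. No gene lost ATRX in both replicates (0.00679% of tiles did), and none carried it in both scramble KD lists. The 6 genes with ATRX in a scramble KD list were n-TEttc8 and n-TNgtt8 in the first, and n-TNgtt4, n-TCgca34, n-TCgca31 and n-TCgca7 in the second.

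H3K9me3 was rare at tRNA genes. Its peaks touched 10 (2.48%) and 3 (0.744%) genes with the scramble LNA, 8 (1.99%) and 4 (0.993%) with the TERRA LNA, as against 4.31%, 4.36%, 5.14% and 4.35% of tiles. The tRNA share was lower than that of tiles in 4 of 4 libraries, by a mean of -2.99 points (SD 0.798, exact sign-flip p = 0.13). It was close to that of coding starts, with a difference of 0.320 points (SD 0.493, exact sign-flip p = 0.375). The conditions overlapped, at 1.61% ± 1.23 (SD, n = 2) and 1.49% ± 0.702 (SD, n = 2), with a difference of -0.124 points (exact permutation p = 1.00). Both first replicates were above both second ones. The first had 12090614 (scramble KD) and 13898785 tags (TERRA KD), the second 5942692 and 5435286, and the part of depth was not tested.

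Over all members, 96.8% had H3K9me3 in no list, as had 90.5% of tiles and 96.9% of coding starts. Of the 110 genes without an ATAC peak, 6 had H3K9me3 in at least 1 list, and of the 263 open genes, 7 did. In the closed chromosome 6 cluster, 2, 1, 3 and 2 of 48 genes carried it (4.17%, 2.08%, 6.25% and 4.17%), near the shares of tiles. n-TCgca12 of that cluster was the only tRNA gene with H3K9me3 in all 4 lists (0.248% of genes, 1.28% of tiles). Its peak was 21.7-fold and 10.5-fold over input after scramble KD, 40.7-fold and 9.21-fold after TERRA KD, with summits at -2503 to -551 bp from the 5′ end, upstream of the gene. It carried no ATRX peak in any list. No tRNA gene gained H3K9me3 in both TERRA KD replicates (0.277% of tiles), and 1 lost it (0.111% of tiles), n-TPtgg2, a proline gene without an ATAC peak.

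Few tRNA genes changed their ATAC state in both replicates. A peak in both TERRA KD and no scramble KD list was found at 2 genes (0.496%, tiles 0.302%, coding starts 0.593%), n-TGgcc11 and n-TKttt22. The peak of n-TGgcc11, a glycine gene inside Vac14, was 3.96-fold and 5.12-fold, and its summits lay 1226 and 992 bp downstream of the 5′ end, outside the gene. The peak of n-TKttt22, a lysine gene, was 4.01-fold and 2.72-fold with summits 70 and 116 bp downstream of the 5′ end. A loss needs a peak in both scramble KD lists, which 274 tRNA genes (68.0%), 4.09% of tiles and 61.5% of coding starts had. A peak in both scramble KD and no TERRA KD list was found at 3 genes (0.744% of all members, tiles 0.169%, coding starts 0.186%), n-TLtaa2, n-TTcgt2 and n-TTagt1, all in clusters of chromosome 13. Their peaks were 4.26-fold and 3.81-fold, 3.31-fold and 2.99-fold, and 2.23-fold and 2.92-fold, in the lower part of their lists, with ranks of 63.7% to 99.3% from the top. A peak that is absent from a list was not detectable at this depth.

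The genes that encode the machinery of tRNA synthesis were open throughout. All 18 listed genes for subunits of RNA polymerase III carried an ATAC peak at their start in all 4 lists. The same held for all 13 genes for its factors, among them Brf1 and Bdp1 of TFIIIB, Gtf3c1 of TFIIIC and the repressor Maf1. All 17 genes of tRNA processing, such as Elac2 and Trnt1, carried such a peak in all 4 lists too. The share over all coding starts was 60.5%. In the first TERRA KD library, ATRX peaks lay at Polr3c, Polr3d and Polr3gl of the 18 subunit genes, at 0 of the 13 factor genes and at Pop7 of the 17 processing genes, in a library with ATRX at 5.91% of all coding starts. In the other 3 ATRX libraries none of these 48 genes carried one. G4 peaks lay at 7, 10, 11 and 1 of the 18 subunit genes in the 4 libraries, whose shares over all coding starts were 40.8%, 61.5%, 47.8% and 16.1%. No gene of the 3 lists gained or lost a G4, ATAC or ATRX peak in both replicates. Over all coding starts, G4 was lost at 5.31%, and the other gains and losses were at 0.00956% to 0.593%. Of 7 other genes transcribed by RNA polymerase III, Rn7sk, Rmrp, Rpph1, Rny1 and Vaultrc5 had an ATAC peak in all lists, and Rny3 and Rnu6 in none.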

How the data were processed

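ATAC-seq and G4, ATRX and H3K9me3 ChIP-seq were made from scramble KD and TERRA KD cells, with 2 replicates each, grouped by their public labels. The authors trimmed reads (Trim Galore 0.5.0), aligned them to GRCm38/mm10 (Bowtie2 2.3.4.1, default settings, under which a read with several equal places is given 1 of them), removed duplicates (SAMtools 1.9) and called peaks per library at p 0.01, with MACS 2.2.7.1 without input for ATAC, 1.4.2 for G4 and 1.4.3 for ATRX and H3K9me3 with input. Both G4 libraries of a condition have an input of the same tag number. For ATRX and H3K9me3, the inputs of the first replicates had 3366921 (scramble KD) and 3374834 tags (TERRA KD). Those of the second had 19735093 and 28622103, so fold values of the replicates stand on inputs of unlike depth. For ChIP, the deposited lists give the count of tags per peak, a score (-10 times log10 of p), the fold enrichment as a ratio to background and a false discovery rate in percent. The ATAC lists, as deposited, hold the signal as pileup at the summit, -log10 p and fold enrichment. None is scaled between libraries, so peaks were ranked within lists. The depth after filtering was 5976014 to 7883648 tags for ATAC, 2961038 to 24588605 for G4, 4104486 to 15506154 for ATRX and 5435286 to 13898785 for H3K9me3. Differences in depth limit what a missing peak can say.

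Windows, motifs, uniqueness and peak overlaps were computed in Python 3.11.15 (numpy 2.4.6, pandas 2.3.3, scipy 1.17.1), and the overlap code was tested on simulated data. Coding starts were the most upstream curated RefSeq starts. Shares were compared with exact permutation tests over libraries, two-sided, and with exact sign-flip tests against tiles or coding starts. p values were not adjusted, as none of the 4 comparisons of conditions could fall below 0.33. Genes were named by rule: the 5 with the best worst rank of an ATAC peak, up to 10 each with an ATRX, G4 or ATAC peak gained or lost in both replicates, up to 5 with H3K9me3 in all lists, the arginine TCT genes, and genes marked as chosen later. The members and lists were chosen with earlier results of these data known. Alternatives changed the flank (100 or 1000 bp), the peak cutoff (-log10 p of at least 5), the summit rule, the number of peaks, the genes near coding starts, merged windows, the libraries and the replicate block.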

Additional observations from a re-analysis of the deposited data

How the results depend on the processing

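Of 180 values under alternatives, 144 kept their direction or, for counts, stayed within 1.5 times. Fully unique windows and leaving out the chromosome 6 cluster were chosen after seeing the data. The cause of the changes was not tested. The ATAC difference between conditions, -0.620 points, was 0.744 with 1000 bp flanks, 0.166 with merged windows, 0 at a -log10 p of 5 or more, and -2.48 to 1.24 with single libraries left out. The G4 difference, -7.69, was -16.4 to 0.993 and the H3K9me3 difference, -0.124, was -0.993 to 0.744 with single libraries left out, and the latter was 0 with 100 bp flanks and at the stricter p. The G4 excess over tiles, 0.358, was -0.0387 with 1000 bp flanks, -3.67 in fully unique windows, -0.0145 with equal numbers of peaks, -0.745 without genes near coding starts, -1.39 without the chromosome 6 cluster and -0.740 to 2.44 with single libraries left out. At the stricter p, the ATRX difference was 0 and the ATRX excess over tiles -0.0817. The ATRX difference, 5.33, was 1.74 without the first and 8.93 without the second TERRA KD library.

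ATAC gains, 2 genes, were 1 with 100 bp flanks and 6 by summit, and ATAC losses, 3 genes, were 1 at the stricter p and 6 by summit. The 1 ATRX gain became 0 with 100 bp flanks, at the stricter p, with equal numbers of peaks and by summit, and the 1 H3K9me3 loss became 0 with 100 bp flanks, at the stricter p and by summit. G4 gains, 0 genes, were 4 with equal numbers of peaks, and G4 losses, 5 genes, were 1 with 100 bp flanks, 10 with 1000 bp flanks, 2 in fully unique windows, 2 by summit and 3 without the chromosome 6 cluster.

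Libraries of the same number deviated together over tiles with r of 0.0793 (ATAC), 0.264 (G4), 0.00795 (ATRX) and 0.15 (H3K9me3), and with 2 pairs the numbers are not taken to pair the libraries. With the number as a replicate block, the differences stayed at -0.620, -7.69, 5.33 and -0.124 points, with exact sign-flip p of 0.5, 1.00, 0.5 and 1.00, where 0.5 is the smallest possible.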
